A study of Mus musculus with 24 samples.

Results

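Atf4, Ddit3 (the gene of CHOP) and 8 further regulators of the integrated stress response were followed in NIH3T3 cells, an immortalised line of mouse embryonic fibroblasts, over the hours after spermidine was given back to polyamine-depleted cultures. The 10 genes, Atf4, Ddit3, Trib3, Atf3, Atf5, Cebpb, Cebpg, Chac1, Nupr1 and Ppp1r15a, were taken by name through the platform annotation from 19938 genes with a probe set of their own. Each was represented by 1 probe set.

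The integrated stress response begins with kinases that phosphorylate the translation initiation factor eIF2. Most translation then slows, while a few mRNAs with upstream open reading frames, among them those of Atf4, Atf5, Ddit3 and Ppp1r15a, are translated better. ATF4, a basic leucine zipper (bZIP) transcription factor, dimerises with C/EBP proteins and switches on genes of amino acid uptake and synthesis, of feedback on the pathway and, under lasting stress, of cell death. The arrays measured RNA only, so neither eIF2 phosphorylation nor ATF4 protein was seen.

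All 24 cultures had received difluoromethylornithine (DFMO), which inhibits ornithine decarboxylase irreversibly, at 1 mM for 96 h. The groups were the cells harvested without spermidine (0 min) and those exposed to 10 µM spermidine for 30, 60 or 120 min and for 240, 360, 480 or 600 min. Spermidine was given with 1 mM aminoguanidine against its oxidation. Each time had 3 biological replicates per the labels, and each array (Affymetrix MoGene 1.0 ST) received material from 200 ng of total RNA. No array analysed here is labelled as coming from an untreated culture or from one held in DFMO alone for the same times, so spermidine, time in culture and handling cannot be told apart. Whether the 0 min cells received aminoguanidine is not stated in the labels.

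The deposited values were on a log2 scale, with array medians between 4.40 and 4.45. Of 11 fibroblast markers 8 averaged above 7, Col1a1, Vim and Pdgfrb among them, and Thy1 (6.04), Dcn (5.97) and Lum (3.94) did not. The marker lists of 5 other cell types (macrophages, epithelium, endothelium, adipocytes and muscle) had medians between 3.84 and 4.14, with Lyz2 (7.40) and Krt14 (7.71) alone above 7. On the first principal component, replicate 3 of 120 min lay at 2.61, against -12.2 for both others of its time, and replicate 3 of 240 min lay at -13.2, against 2.07 and 1.49. Each of these arrays thus lay close to the other arrays of the other time, and the reason was not tested. Both arrays were kept under their labels, and results at 120 and 240 min are also given without this pair. The mean of each replicate number over the 8 times was equal for every gene, to within 8.75e-05, so an effect of replicate number had been removed before deposit. The tests reported count 16 residual degrees of freedom, against 14 with replicate number as a block, so their p-values are somewhat too small. The regulators' calls that end with the block are named. Each array averages a whole culture, in which fewer cells holding an RNA and less of that RNA per cell cannot be told apart.

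The RNA of all 10 regulators was lower at the end of the course than before spermidine. A gene was called where limma's moderated test gave a Benjamini-Hochberg adjusted p under 0.05 over all 19938 genes. No regulator was called at 30 or 60 min. Atf4 alone was called lower at 120 min, Atf4, Trib3 and Chac1 (3 of 10) at 240 min, 9 genes at 360 min (all but Cebpb) and all 10 at the last pair of times. From 30 min on, the shares of all genes called lower at the 7 times were 0%, 0.015%, 0.426%, 2.69%, 10.5%, 14.5% and 15.7%. None of the 10 was called higher, beside shares of all genes of 0.015%, 0.01%, 0.0451%, 0.366%, 8.47%, 9.73% and 11.2%. Without any test, all 3 arrays lay below the 3 of 0 min for 7 regulators at 120 min (11% of all genes), 4 at 240 min (11.1%), 9 at 360 min (17.3%), and 10 at 480 min (19.7%) and 600 min (19.9%). The median log2 difference of the 10 genes from 0 min was 0.18, 0.00, -0.42, -0.34, -0.81, -1.14 and -1.12 at the 7 later times, while that over all genes stayed within 0.01 of 0 at each of them. All 7 differences share the 3 arrays of 0 min and are set side by side on that footing.

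**Figure D1:**
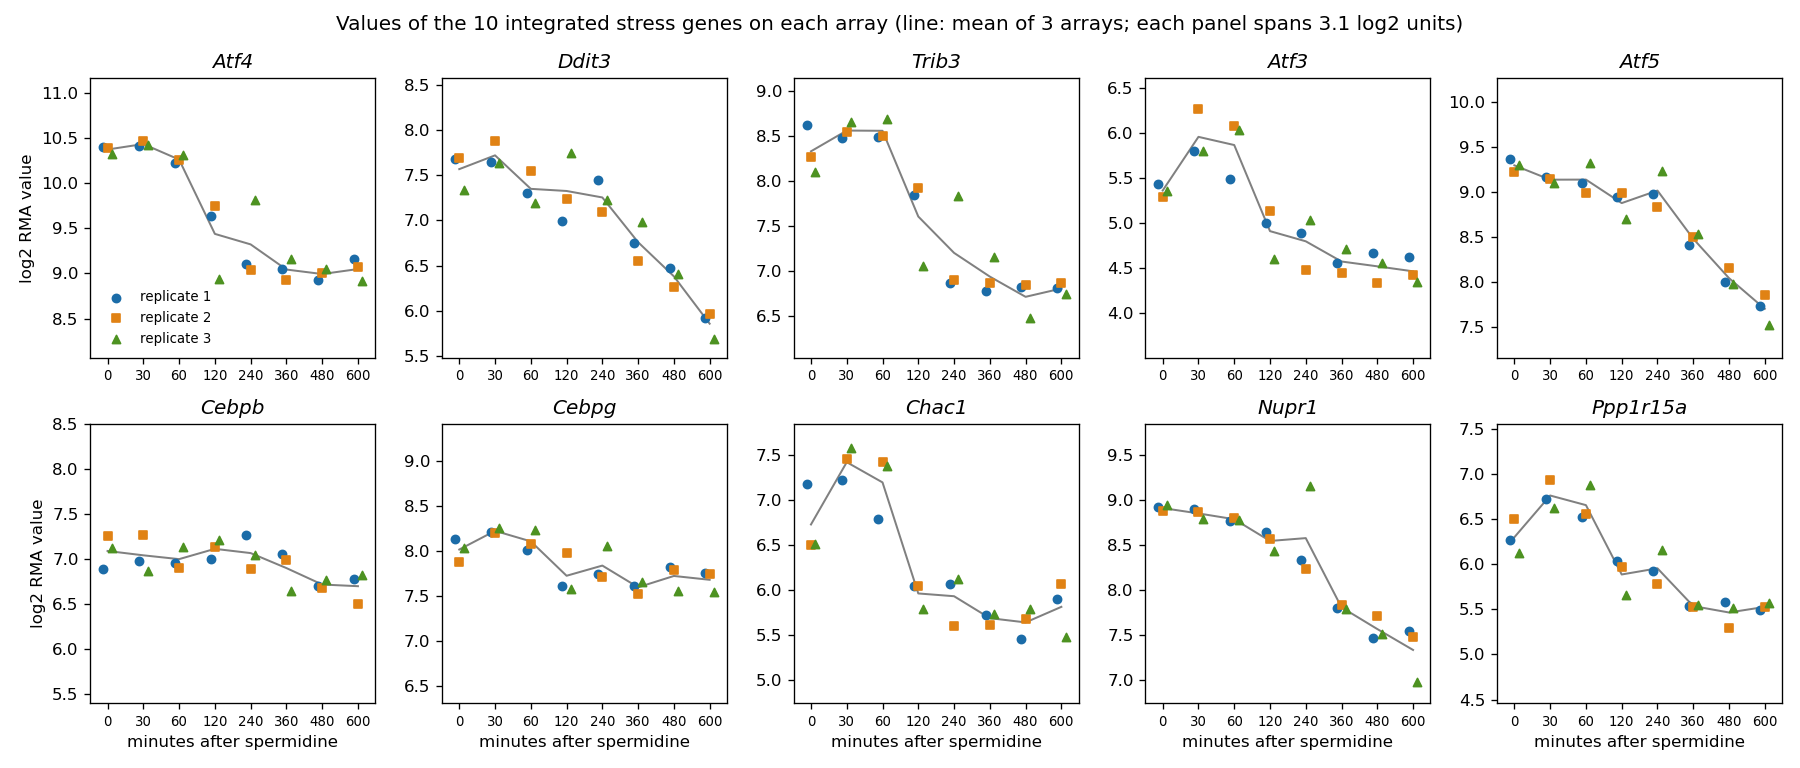
Log2 level (y axis) against minutes after spermidine (x axis) for each of the 10 regulators, with 1 point per array (n = 3 at each time) and a line through the means. All 10 genes are lower at 600 min than at 0 min, Ddit3 by 1.72 and Cebpg by 0.34 on the log2 scale, and a replicate of 120 and of 240 min stands off the line in Atf4 and Trib3.

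By the moderated F-test over the 7 differences from 0 min, 10 of 10 regulators changed with time, beside 30.9% of all genes. Cebpb passed least clearly (adjusted p = 0.0442, limma) and did not pass with the replicate block (0.0824), without the pair that stood apart (0.0861) or in 13 of 24 fits that left out 1 array. The other 9 genes passed in all of those fits. The falls differed in size and in timing among the 10, and the genes are taken below by their roles.

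The promoters bear on how members of the set relate to ATF4, which binds, with a C/EBP partner, a composite site known as the C/EBP-ATF response element (CARE). The windows from 250 bases before to 50 bases after each start were taken from RefSeq on mouse build GRCm38.p6, and all 10 regulators were found there. The letters TGATGNAA were searched on both strands. They occurred in the windows of 4 of 10 regulators, Atf3, Chac1, Nupr1 and Trib3, beside 4.51% of 27025 genes with such a window. These 4 windows are shown in full because they hold the element, each 5′ to 3′ on the strand of its gene, with the match in capitals, where it reads as the reverse complement of the letters searched. The Atf3 window is chr1:191183284-191183583 on the minus strand, with the match at -110 to -103 from the start. The Chac1 window is chr2:119350992-119351291 on the plus strand, with the match at -193 to -186. The Nupr1 window is chr7:126625421-126625720 on the minus strand, with the match at -110 to -103. The Trib3 window is chr2:152344011-152344310 on the minus strand, with the match past the start, at 14 to 21.
Atf3: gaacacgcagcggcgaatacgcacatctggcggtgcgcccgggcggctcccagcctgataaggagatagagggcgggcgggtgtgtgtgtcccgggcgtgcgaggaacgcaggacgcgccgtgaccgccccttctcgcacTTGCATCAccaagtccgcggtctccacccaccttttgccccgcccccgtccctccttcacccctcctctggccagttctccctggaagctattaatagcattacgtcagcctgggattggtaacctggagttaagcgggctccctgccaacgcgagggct
Chac1: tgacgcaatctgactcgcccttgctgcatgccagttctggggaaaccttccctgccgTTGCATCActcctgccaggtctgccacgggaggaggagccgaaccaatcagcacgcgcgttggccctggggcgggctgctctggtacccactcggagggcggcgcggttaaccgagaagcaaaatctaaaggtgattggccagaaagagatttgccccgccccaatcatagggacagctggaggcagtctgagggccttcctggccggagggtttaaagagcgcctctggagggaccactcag
Nupr1: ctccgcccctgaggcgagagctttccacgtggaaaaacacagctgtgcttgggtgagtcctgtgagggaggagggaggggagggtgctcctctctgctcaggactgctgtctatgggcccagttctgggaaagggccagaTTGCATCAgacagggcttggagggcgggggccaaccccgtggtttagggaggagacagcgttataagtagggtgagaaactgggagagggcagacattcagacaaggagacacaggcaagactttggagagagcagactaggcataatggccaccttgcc
Trib3: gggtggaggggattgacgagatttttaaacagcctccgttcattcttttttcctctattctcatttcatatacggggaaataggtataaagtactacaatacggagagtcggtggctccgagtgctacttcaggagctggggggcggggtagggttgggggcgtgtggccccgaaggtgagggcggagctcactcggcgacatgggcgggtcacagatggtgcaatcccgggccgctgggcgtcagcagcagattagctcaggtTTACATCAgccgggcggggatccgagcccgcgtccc
Of other letters searched on both strands, the cAMP response element TGACGTCA, the palindromic site of CREB and ATF factors, occurred in the Ppp1r15a window only (-12 to -5), beside 2.03% of genes. The AP-1 letters TGANTCA occurred in the Ddit3 window only (-242 to -236), beside 8.97% of genes. The endoplasmic reticulum stress element, which ATF6 reads together with NF-Y and whose letters are not spelled out here, was in none of the 10 windows and in 0.137% of genes. None of these motifs overlaps another in these windows. A match of letters is a description and not a site in use, and a window without a match says only that the letters are not in it.

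Atf4, the central effector of the pathway, fell early and then held a level. Its arrays read 10.41, 10.40 and 10.33 at 0 min, 10.41, 10.47 and 10.43 at 30 min, then 10.23, 10.26 and 10.31 at 60 min. They read 9.63, 9.75 and 8.93 at 120 min, followed by 9.11, 9.04 and 9.82 at 240 min. They read 9.05, 8.93 and 9.16 at 360 min, 8.93, 9.01 and 9.04 at 480 min, then 9.16, 9.07 and 8.91 at 600 min. Every array from 120 min on lay below the 3 of 0 min. Of the pair that stood apart, replicate 3 at 120 min lay within the range seen at 360 to 600 min, and replicate 3 at 240 min lay above it. At 600 min Atf4 averaged 9.05 ± 0.13, against 10.38 ± 0.04 at 0 min (SD, n = 3 each), which is 2.51-fold lower (log2 difference -1.33 ± 0.17 SE, limma adjusted p = 5.2e-06). The difference was as large at 360 min (-1.33, adjusted p = 2.03e-05) and at 480 min (-1.38, 4.82e-06).

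At 120 min the size of the fall in Atf4 held better than its call. The difference of 120 min from 60 min was -0.83 (limma adjusted p = 0.0373), and it was no longer called with the replicate block (0.0881), without replicate 3 of 120 min (-0.57, 0.234) or without any 1 array of 60 min (-0.80 to -0.84, 0.0633 to 0.155). The call at 120 min against 0 min (-0.94, adjusted p = 0.0133) ended without replicate 3 of 120 min (-0.68, 0.0719), without replicate 1 (-0.92, 0.0929) or 2 (-0.93, 0.0504) of 0 min, and with the 6 arrays of both times alone (0.223). Without the pair that stood apart, Atf4 was called at 120 min against 0 min (-0.68, with the block too), at 120 min against 60 min (-0.57) and at 240 min against 120 min (-0.62, adjusted p = 0.000392).

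Ddit3 encodes CHOP, a C/EBP-family factor that ATF4 induces and that promotes death under lasting stress. It fell late and furthest of the 10 genes. Its arrays read 7.68, 7.69 and 7.34 at 0 min, 7.65, 7.88 and 7.64 at 30 min, then 7.31, 7.55 and 7.19 at 60 min. They read 7.00, 7.23 and 7.75 at 120 min, followed by 7.45, 7.09 and 7.23 at 240 min, both overlapping 0 min. The last 3 times gave 6.75, 6.55 and 6.98 (360 min), 6.47, 6.26 and 6.41 (480 min) and 5.92, 5.97 and 5.68 (600 min). From 360 min on no array overlapped 0 min, and the 3 arrays of each late time lay wholly below those of the late time before. Ddit3 averaged 5.85 ± 0.15 at 600 min, against 7.57 ± 0.20 at 0 min (SD, n = 3 each), which is 3.29-fold lower (-1.72 ± 0.16 SE, limma adjusted p = 9.47e-08) and the 4th lowest difference of all 19938 genes. Against 0 min it differed by -0.24 at 120 min and -0.31 at 240 min, neither called, by -0.81 at 360 min (adjusted p = 0.000879) and by -1.19 at 480 min (1.06e-05). Without the pair that stood apart, whose array of 120 min read 7.75, Ddit3 differed by -0.46 at 120 min and was not called (adjusted p = 0.279).

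Cebpb and Cebpg encode the C/EBP partners with which ATF4 and CHOP dimerise, and they moved least. Cebpb lay at 6.50 to 6.82 at 600 min, against 6.89 to 7.26 at 0 min, a difference of -0.39 ± 0.12 (SE, limma adjusted p = 0.0231). The Cebpb arrays at 600 min thus lay below all 3 of 0 min, by a small gap. At 480 min Cebpb differed by -0.37 (0.0333), and this call ended with the replicate block (0.0515) and under quantile normalization (0.055). Cebpg lay at 7.55 to 7.76 at 600 min, against 7.88 to 8.14 at 0 min, a difference of -0.34 ± 0.11 (0.0217). Its difference was -0.42 at 360 min (0.00731) and -0.29 at 480 min (0.0496), and the call at 480 min ended with the block (0.0736) and under quantile normalization (0.0815). At 480 min the call of Cebpb also ended without any 1 array of that time or without replicate 2 or 3 of 0 min (0.0527 to 0.167), and that of Cebpg without replicate 2 or 3 of that time or replicate 1 or 3 of 0 min (0.0659 to 0.235). At 600 min the call of Cebpb ended without replicate 2 of that time or replicate 2 or 3 of 0 min (0.0661 to 0.14), and that of Cebpg without replicate 3 of that time or replicate 1 or 3 of 0 min (0.0573 to 0.112).

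**Figure D2:**
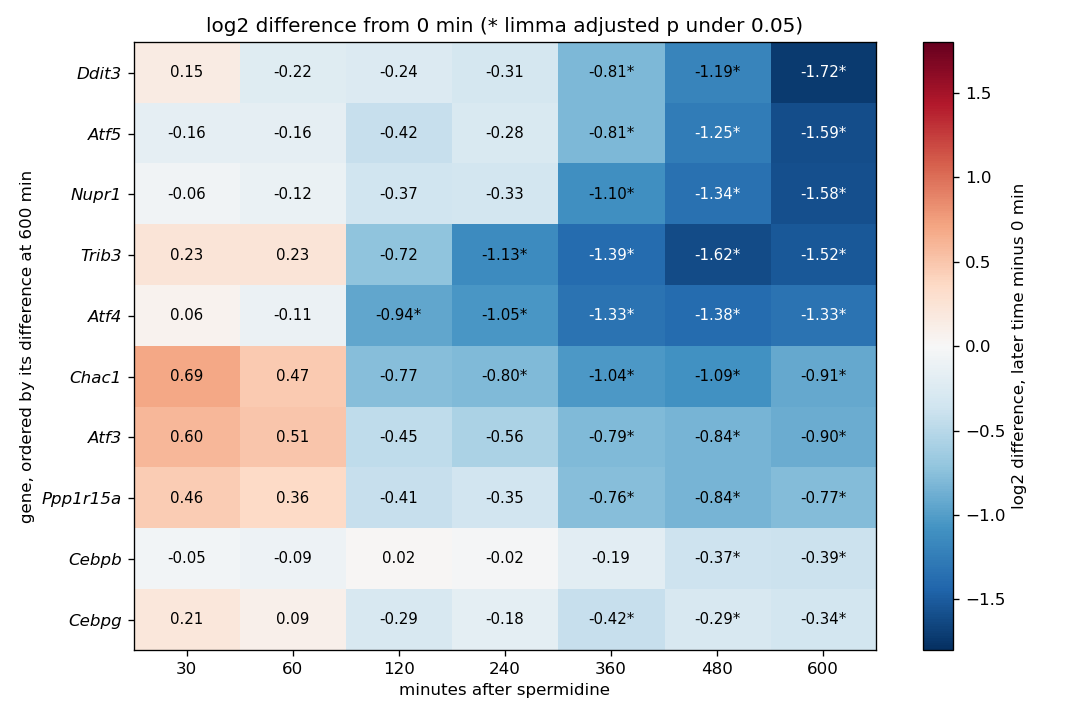
Log2 difference from 0 min (colour) for the 10 regulators (rows) at 7 times after spermidine (columns), with a star where limma's adjusted p was under 0.05. No cell is starred at 30 or 60 min, 1 is at 120 min and 3 are at 240 min, and all 10 are at 480 and 600 min, each with a negative value.

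Trib3, Chac1 and Ppp1r15a are induced downstream of ATF4. Trib3, a pseudokinase that binds ATF4 and CHOP and restrains them, had a course like that of Atf4. Its arrays read 8.62, 8.26 and 8.10 at 0 min, 8.47, 8.54 and 8.66 at 30 min, then 8.48, 8.50 and 8.68 at 60 min. They read 7.84, 7.92 and 7.05 at 120 min, followed by 6.87, 6.90 and 7.83 at 240 min, with replicate 3 apart from the others of its time as for Atf4. From 360 min on they lay between 6.47 and 7.16, with no overlap with 0 min. Trib3 averaged 6.80 ± 0.06 at 600 min, against 8.33 ± 0.27 at 0 min (SD, n = 3 each), a difference of -1.52 ± 0.22 (SE, limma adjusted p = 2.32e-05). At 240 min its difference of -1.13 (0.0079) was the 3rd lowest of all genes, and the call ended when replicate 1 (0.0639) or 2 (0.0601) of that time, or the first of 0 min (0.0604), was left out. Without the pair that stood apart it was -1.44 at 240 min, and the difference of 240 min from 120 min was -0.997 (adjusted p = 0.00112).

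Chac1 encodes an enzyme that degrades glutathione and is induced by ATF4 and CHOP. Its arrays read 7.17, 6.49 and 6.51 at 0 min, 7.22, 7.45 and 7.58 at 30 min, then 6.79, 7.42 and 7.37 at 60 min. They read 6.05, 6.05 and 5.79 at 120 min, followed by 6.07, 5.60 and 6.12 at 240 min, below every array of 0 min, whose replicate 1 stood well above the other two. From 360 min on they lay between 5.45 and 6.07. The difference from 0 min was -0.77 at 120 min (limma adjusted p = 0.0844), -0.80 at 240 min (0.0278), -1.04 at 360 min (0.000596) and -0.91 ± 0.19 (SE) at 600 min (0.00104). The call at 240 min ended with the replicate block (0.0553) and when replicate 1 (0.0678) or 2 (0.155) of that time, or the first of 0 min (0.169), was left out.

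Ppp1r15a encodes GADD34, the subunit that leads protein phosphatase 1 to phosphorylated eIF2 and so reverses the signal. It stood at 5.49 to 5.57 at 600 min, against 6.13 to 6.51 at 0 min, and averaged 5.53 ± 0.04 at 600 min, against 6.30 ± 0.19 at 0 min (SD, n = 3 each). The difference was -0.77 ± 0.12 (SE, limma adjusted p = 4.53e-05) at 600 min and -0.76 (0.000134) at 360 min. At 120 min all 3 of its arrays (5.66 to 6.04) were already below those of 0 min, with a difference of -0.41 that was not called (0.136). At 240 min the difference was -0.35 with all arrays, not called (0.135), and -0.45 without the pair that stood apart, called (0.0167).

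Atf3, Atf5 and Nupr1 are stress-induced transcription regulators, Atf3 a bZIP factor, Atf5 a relative of ATF4 linked to mitochondrial stress and Nupr1 a small chromatin protein. Atf5 read 9.37, 9.21 and 9.30 at 0 min, 9.16, 9.14 and 9.10 at 30 min, then 9.09, 8.99 and 9.32 at 60 min. It read 8.94, 8.98 and 8.70 at 120 min, followed by 8.98, 8.83 and 9.23 at 240 min. The last 3 times gave 8.40, 8.50 and 8.53 (360 min), 8.00, 8.15 and 7.97 (480 min) and 7.73, 7.86 and 7.52 (600 min). As with Ddit3, each late time lay wholly below the late time before. At 240 min the difference from 0 min was -0.28 with all arrays, not called (limma adjusted p = 0.151), and -0.39 without the pair that stood apart, called (0.0112). At 600 min Atf5 averaged 7.70 ± 0.17, against 9.29 ± 0.08 at 0 min (SD, n = 3 each), a difference of -1.59 ± 0.10 (SE, limma adjusted p = 8.2e-10).

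Nupr1 read 8.92, 8.87 and 8.94 at 0 min, 8.90, 8.87 and 8.79 at 30 min, then 8.77, 8.81 and 8.78 at 60 min. It read 8.64, 8.57 and 8.43 at 120 min, followed by 8.34, 8.24 and 9.16 at 240 min, where replicate 3 exceeded every 0 min array. The last 3 times gave 7.80, 7.84 and 7.79 (360 min), 7.47, 7.71 and 7.52 (480 min) and 7.54, 7.49 and 6.98 (600 min). From 360 min on no array overlapped 0 min. At 600 min Nupr1 differed from 0 min by -1.58 ± 0.16 (SE, limma adjusted p = 4.2e-07). At 240 min the difference was -0.33 with all arrays, not called, and -0.62 without the pair that stood apart (0.00107).

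Atf3 ended close to the array medians. It lay at 4.35 to 4.62 at 600 min, against 5.29 to 5.44 at 0 min, a difference of -0.90 ± 0.17 (SE, limma adjusted p = 0.000351). At 360 min its difference was -0.79 (0.00202), and at 240 min it was -0.56, not called with all arrays (0.0766) and called without the pair that stood apart (-0.68, 0.0143). The deposited table gives no detection call, so whether Atf3 was still above background late in the course is not known.

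Before the fall, part of the set stood above 0 min. At 30 min all 3 arrays of Atf4, Atf3, Cebpg, Chac1 and Ppp1r15a lay above the 3 of 0 min (5 of 10 regulators, beside 5.1% of all genes), and those of Atf5 lay below (8.32% of all genes). Atf3 read 5.80, 6.27 and 5.81 at 30 min, against 5.44, 5.29 and 5.36 at 0 min, a difference of 0.60. The difference of Chac1 was 0.69 and that of Ppp1r15a 0.46. Atf4 differed by only 0.06 (limma adjusted p = 0.993), with its lowest array at 10.4101 against 10.4056 for the highest of 0 min. For Chac1 these arrays were close too, at 7.22 against 7.17. None of these was called by limma after adjustment (adjusted p = 0.618 for Atf3, 0.603 for Chac1 and 0.528 for Ppp1r15a), in a comparison in which 3 of 19938 genes were called. At an unadjusted p under 0.05, 3 regulators passed at 30 min, beside 1104 of all genes. At 60 min the arrays of Atf3 and Ppp1r15a still lay above 0 min (5.49% of all genes), with differences of 0.51 and 0.36, and those of Atf4 and Nupr1 lay below (6% of all genes). At 60 min 3 regulators had an unadjusted p under 0.05, beside 1024 of all genes, and limma called none of them.

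At 60 min against 30 min no regulator was called lower by limma, beside 0.0351% of all genes, and 1 regulator and 1260 genes had an unadjusted p under 0.05. The next interval, 60 to 120 min, held falls. Chac1 fell by 1.23 (limma adjusted p = 0.00356), Atf3 by 0.96 (0.0106) and Ppp1r15a by 0.77 (0.00356) at 120 min against 60 min, as did Atf4. These 4 of 10 regulators stood beside 0.306% of all genes called lower in that interval. Atf3 lost its call without replicate 3 of 120 min (adjusted p = 0.105), without replicate 2 (0.0977) or 3 (0.0848) of 60 min, and without the pair that stood apart (-0.80, 0.0576), in which fit Trib3 was called (-0.67, 0.031). With the replicate block and without the pair, Chac1 was no longer called either (-1.15, 0.0657). With the 6 arrays of 60 and 120 min alone none of the 4 was called.

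The intervals after 120 min are given next, with Ddit3, Atf5 and Nupr1 set beside Atf4. At 240 min against 120 min limma called 0 regulators and 0 genes in all, with 0 regulators and 1879 genes at an unadjusted p under 0.05. This rests on the pair that stood apart. Without it limma called 524 genes, Atf4 (-0.62, adjusted p = 0.000392) and Trib3 (-0.997, 0.00112) among them. At 360 min against 240 min Nupr1 fell by 0.77 (adjusted p = 0.00857), Atf5 by 0.53 (0.00376) and Ppp1r15a by 0.42 (0.0434), beside 1.8% of all genes called lower. The call of Ppp1r15a ended with the replicate block (0.0752), without the pair that stood apart (0.172) and without any 1 array of either time except replicate 2 of 240 min (0.0691 to 0.278), and none of the 3 was called from the 6 arrays alone (0.0609 to 0.15). Ddit3 differed by -0.50 in that interval and was not called (limma adjusted p = 0.0681). It was called under a filter on low values (-0.50, 0.0322) and under quantile normalization (-0.52, 0.0361). Neither of the last 2 intervals held a called regulator by limma, and each held 2 at an unadjusted p under 0.05, beside 2006 genes at 480 min against 360 min (0.321% of all genes called lower) and 1699 genes at 600 min against 480 min (0.0301%). Over both intervals together, a comparison added after the values had been seen, Ddit3 was lower at 600 min than at 360 min by 0.90 on the log2 scale (adjusted p = 0.00141) and Atf5 by 0.78 (6.95e-05), beside 3.43% of all genes called lower. Atf4 differed by 0.01 over the same span, with a 95% confidence interval of -0.35 to 0.36, and Nupr1 by -0.47 (0.105, and 0.00467 without the pair that stood apart).

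The timing can be read as the share of each gene's difference at 600 min that had been reached earlier, which carries no test. At 120 min this share was 83.7% for Chac1, 70.6% for Atf4, 47.5% for Trib3, 26.3% for Atf5, 23.2% for Nupr1 and 14.1% for Ddit3. Without the pair that stood apart it was 74.4% for Chac1, 51.5% for Atf4, 29.3% for Trib3, 26.5% for Ddit3, 20.9% for Atf5 and 19.5% for Nupr1, so that Trib3 and Ddit3 lay close together at 120 min. At 240 min it was 87.1% for Chac1, 79.4% for Atf4, 74% for Trib3, 21.2% for Nupr1, 18.3% for Ddit3 and 17.6% for Atf5. Without the pair that stood apart, at 240 min, it was 97.9% for Atf4, 97.5% for Chac1 and 94.8% for Trib3, and between 17.6% and 39.6% for Ddit3, Atf5 and Nupr1. At 360 min Ddit3 had reached 47.3%, Atf5 51.1% and Nupr1 70%, while Atf4 stood at 100.4%. Atf4, Trib3 and Chac1 were thus near their end level at 240 min in the arrays without the pair, and Ddit3, Atf5 and Nupr1 were not. For the remaining regulators the share at 240 min without the pair was 85.7% for Cebpg, 75.8% for Atf3, 57.8% for Ppp1r15a and 3.8% for Cebpb. Cebpg, Atf3 and Ppp1r15a thus lay between the named groups, and the regulators formed a graded series rather than separate timing classes.

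**Figure D3:**
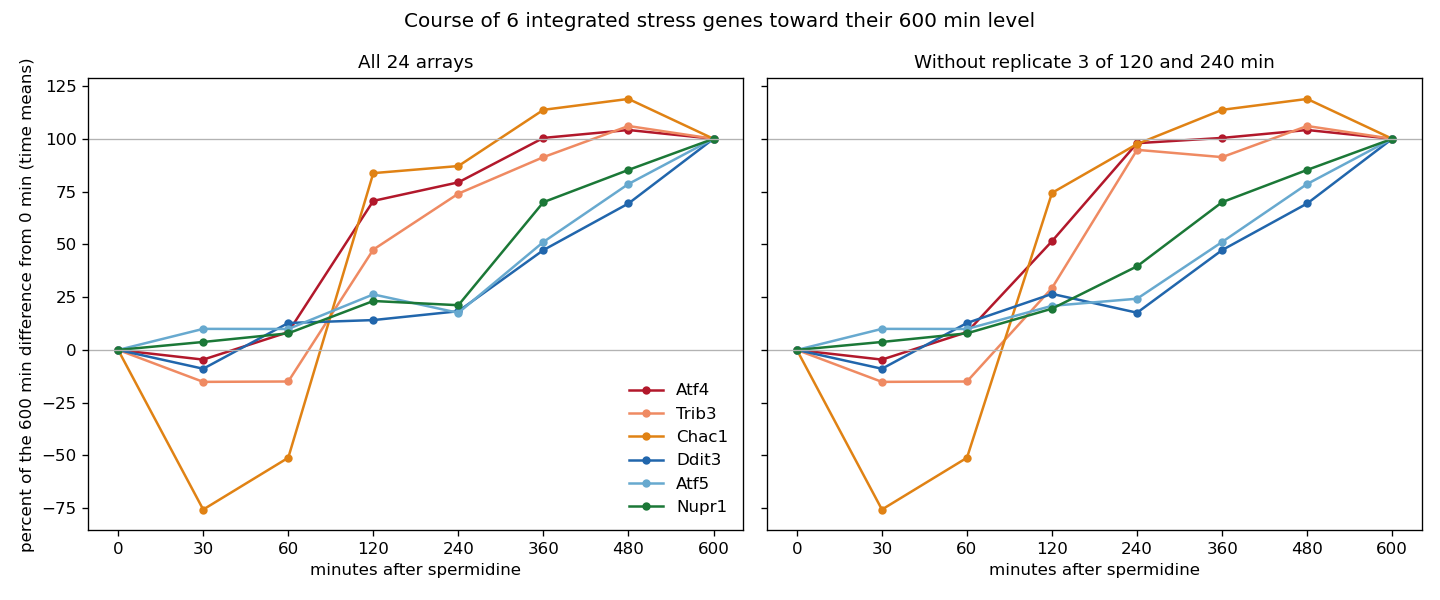
Share of the 600 min difference from 0 min reached at each time (y axis, percent) against minutes after spermidine (x axis, times evenly spaced) for 6 regulators, with all 24 arrays on the left and without replicate 3 of 120 and of 240 min on the right. Atf4, Trib3 and Chac1 run above Ddit3, Atf5 and Nupr1 from 120 to 360 min in both panels. Cebpg, Atf3 and Ppp1r15a, not drawn, lay between these groups at 240 min in the arrays of the right panel.

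Across the 24 arrays the 45 pairs of regulators had a median Pearson r of 0.795, a description of arrays that share the same time course. It was highest for Atf4 with Trib3 (0.972), Atf5 with Nupr1 (0.965), Atf3 with Ppp1r15a (0.960) and Atf3 with Chac1 (0.951). It was lowest for Cebpb with Cebpg (0.268). Ddit3 had an r of 0.910 with Atf5 and of 0.713 with Atf4. Among all genes called by the F-test, the 5 most like Atf4 over 24 arrays were Zxdc (0.975), Rbm22 (0.975), Stk40 (0.974), Btbd19 (0.973) and Trib3. The 5 most like Ddit3 were Ogdhl (0.950), Ccdc107 (0.946), Rangrf (0.946), Dusp3 (0.944) and Nme1 (0.944).

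The rest of the pathway was read from 6 lists of related genes, none of whose members was called at 30, 60 or 120 min. Of the 8 genes of eIF2 kinases and their regulators, 5 fell and 1 rose at 600 min against 0 min, beside 15.7% and 11.2% of all genes. The gene that rose was Eif2ak4, the kinase GCN2 (0.21, limma adjusted p = 0.0218), which is named here after its value was seen. Impact, which restrains GCN2, fell by 0.80 (limma adjusted p = 2.61e-08), and Gcn1, which GCN2 needs for its activation, by 0.55 (0.000277). Eif2ak1, the kinase HRI, fell by 0.27 (2.37e-05). Oma1 and Dele1, which relay mitochondrial stress to HRI, fell by 0.33 and 0.29. Eif2ak3, the endoplasmic reticulum kinase PERK, was higher at 360 min by 0.45 (0.0169) and not called at 600 min (0.29, adjusted p = 0.11).

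Of 15 measured genes listed with eIF2, its exchange factor eIF2B and its phosphatase, 7 fell and 4 rose at 600 min. The shares of all genes were 15.7% and 11.2%. The list also holds Eif2a, Eif2d, Dnajc3 and Nck1, which are subunits of none of these. Eif2d was among the 7, and Eif2a and Dnajc3 were among the 4. Eif2s1, the alpha subunit of eIF2, had no matching probe set and was not measured. Eif2s2, the beta subunit of eIF2, averaged 9.66 ± 0.06 at 600 min, against 10.52 ± 0.04 at 0 min (SD, n = 3 each), and fell by 0.86 (limma adjusted p = 7.02e-09). The exchange factor subunits Eif2b3 and Eif2b5 fell by 0.64 and 0.60, and Eif2b1 by 0.41, while Eif2b4 rose by 0.27 (limma adjusted p = 0.00501). Dnajc3, an endoplasmic reticulum co-chaperone also known as an inhibitor of eIF2 kinases, rose by 0.76 (2.94e-05). Ppp1cc, a catalytic subunit of protein phosphatase 1, rose by 0.35. Another catalytic subunit, Ppp1cb, fell by 0.31 (limma adjusted p = 0.000151), and Ppp1r15b, listed with the phosphatase, fell by 0.62 (0.000314). Eif2b1, Eif2b4, Ppp1cb and Ppp1r15b are named here after their values were seen. Of 22 further bZIP genes, 7 fell at 600 min, beside 15.7% of all genes, and 3 rose. The share that rose was near the 11.2% of all genes. Atf6, the membrane-bound sensor of the endoplasmic reticulum, fell by 0.95 (4.87e-08), Mafk by 0.79, Atf2 by 0.51 and Nfe2l2 (NRF2) by 0.30, while Creb3l2 rose by 0.65 (0.0021).

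Of 37 measured targets of ATF4 outside the set, 2 were called lower at 240 min, 21 at 360 min, 24 at 480 min and 26 at 600 min, and 1, 2 and 1 were called higher at the last 3 times. The shares of all genes called lower at these 4 times were 2.69%, 10.5%, 14.5% and 15.7%. Those called higher at the last 3 were 8.47%, 9.73% and 11.2%. With the replicate block 1, 21, 23 and 25 of the targets were called lower, beside 356, 3267, 4344 and 4824 genes called in either direction. At 480 min the block left 1 target called higher, in place of 2. Their median log2 difference was -0.28 at 360 min, -0.43 at 480 min and -0.58 at 600 min. The targets called higher were Klhl24 at each of these times (0.54 at 600 min, limma adjusted p = 0.000709) and Ddit4 at 480 min (0.50, 0.045). Both are named here after their values were seen. Without the pair that stood apart 11 of 37 were lower at 240 min. Calls over all genes at that time, in either direction, rose as well, from 610 with all arrays to 1663 without the pair. The 2.69% given above belongs to the fit with all arrays, so the rise among the targets accompanies a rise over all genes. Slc7a5, the light chain of the large neutral amino acid transporter, averaged 9.17 ± 0.10 at 600 min, against 10.72 ± 0.04 at 0 min (SD, n = 3 each), and fell by 1.56 (limma adjusted p = 7.96e-10). Its heavy chain Slc3a2 fell by 0.74, and Asns, the asparagine synthetase, by 0.78 (5.32e-09). The aminoacyl-tRNA synthetase genes Cars, Tars and Eprs, which charge tRNAs with amino acids, fell by 1.05, 0.88 and 0.60.

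Of 12 genes linked to CHOP, on the side of cell death and autophagy, 6 fell and 1 rose at 600 min, beside 15.7% and 11.2% of all genes, so the rise of 1 gene did not stand out. Car6, whose stress transcript CHOP induces, fell by 1.15 (limma adjusted p = 3.86e-11), Gadd45a, a growth arrest gene, by 1.12 (8.25e-05), and the autophagy receptor gene Sqstm1 by 0.80. Tnfrsf10b, the death receptor DR5, fell by 0.47 (0.0233). Ero1a, an oxidase of disulphide formation, rose by 0.43 (3.86e-05). At earlier times Dnajb9, an endoplasmic reticulum co-chaperone gene, was higher at 360 min (1.07, 0.00748) and Bcl2l11, which encodes the death factor BIM, at 480 min (0.27, 0.011), both named after their values were seen.

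Endoplasmic reticulum folding genes, controlled by the XBP1 and ATF6 branches of the unfolded protein response, more often rose than fell. Of 24 measured genes 16 rose and 2 fell at 360 min, 13 rose and 2 fell at 480 min and 11 rose and 2 fell at 600 min, with medians of 0.37, 0.30 and 0.15. With the replicate block 15, 11 and 11 rose, beside 3267, 4344 and 4824 genes called in either direction. The shares of all genes called higher at these times were 8.47%, 9.73% and 11.2%, and those called lower were 10.5%, 14.5% and 15.7%. Manf rose by 0.70 (limma adjusted p = 0.000242), Mbtps1, the protease that cleaves ATF6, by 0.67 (4.93e-08), the chaperone gene Calr by 0.66 (2.51e-05), Creld2 by 0.62 and the disulphide isomerase gene Pdia6 by 0.37 at 600 min. Atf6 itself, which 2 of the lists share, was one of the genes that fell. Xbp1 is likewise also in the bZIP list, and Dnajb9 also in the list linked to CHOP, so the lists are not independent.

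**Figure D4:**
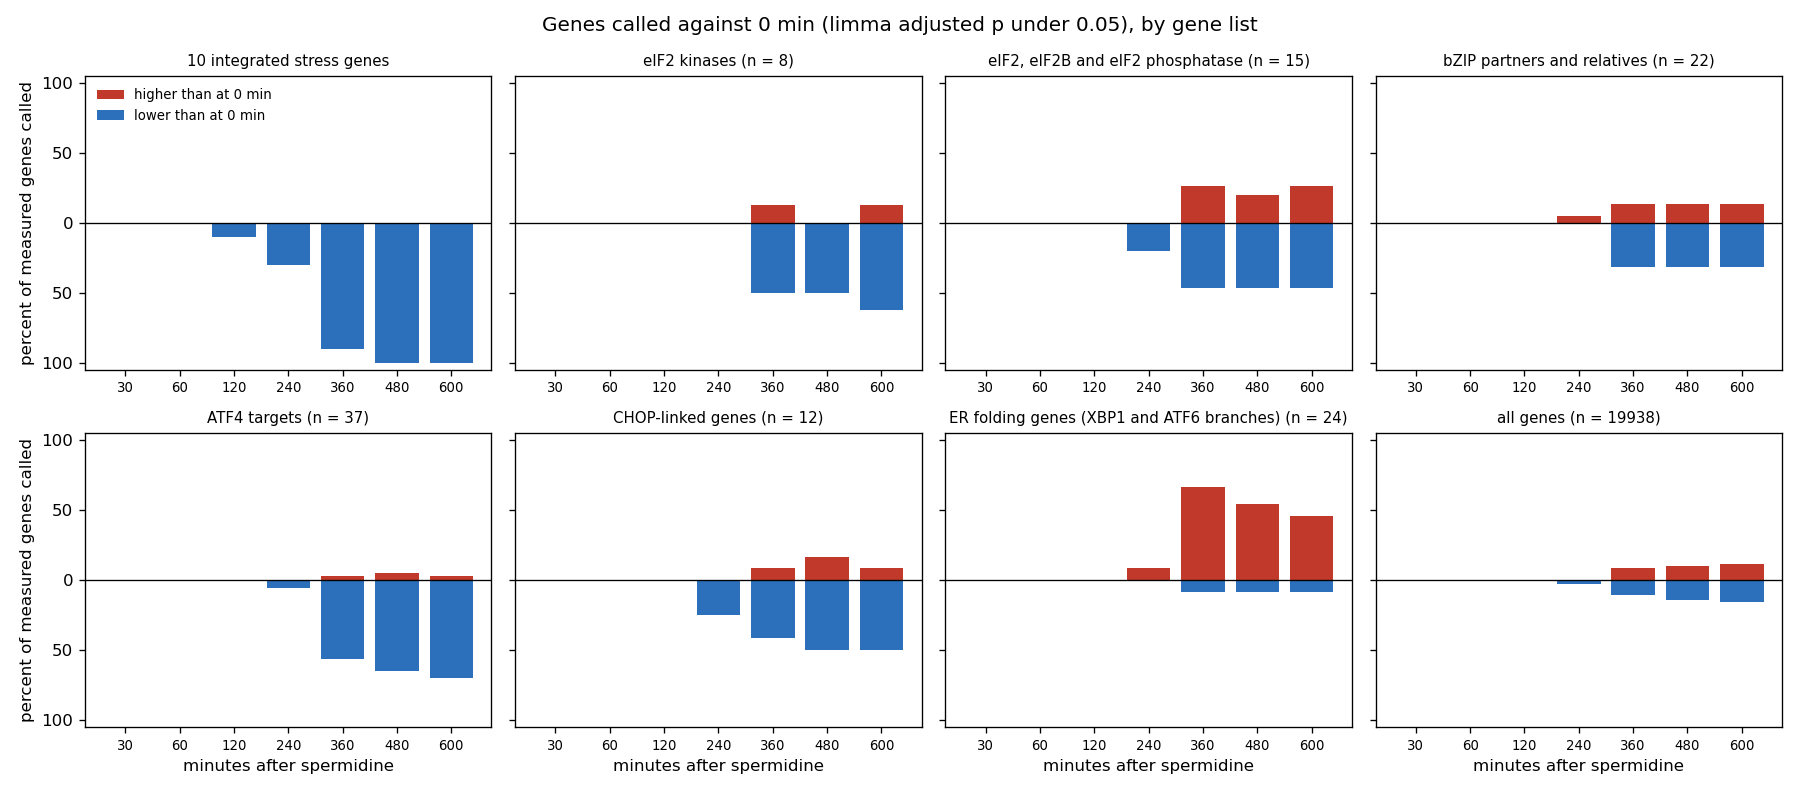
Percent of measured genes called higher (red, upward bars) and lower (blue, downward bars) than at 0 min (limma adjusted p under 0.05) at each time after spermidine, for the 10 regulators, the 6 lists of related genes and all 19938 genes. ATF4 targets are called lower in 21 to 26 of 37 cases from 360 min on, while 11 to 16 of 24 folding genes are called higher.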

How the data were processed

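RNA of 24 cultures was hybridised to 24 arrays, 3 for each of 8 times, and the authors deposited log2 values made with Partek and RMA, per the submitters' processing notes, with versions not given in the sources used here. No note states the log base, which was inferred from the values. The removal of a replicate effect before deposit is likewise seen in them and described in no label or note. The deposited values were used without further normalization. Of 35399 probe sets 21789 carried 1 symbol, 1621 several and 11989 none. For each of 19938 genes the probe set with the highest mean was kept.

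limma 3.58.1, run in R 4.3.3 with version 1.17.8 of data.table, fitted a mean for each time to the 24 arrays (lmFit and eBayes). Its moderated tests were two-sided, with 16 residual degrees of freedom and 3.48 from the prior. P-values were adjusted by Benjamini-Hochberg within each comparison over all genes, and genes were called under 0.05. Comparisons were 7 times against 0 min, 6 pairs of neighbouring times, the F-test, and 600 against 360 min. Precision is limited by how many arrays there were: over all genes, differences had a median standard error of 0.0567 and a median 95% half-width of 0.118 on the log2 scale. Promoters and figures were handled in Python 3.11.15 with pandas 2.3.3 and matplotlib 3.10.9. P-values measure the spread between the labelled biological replicates that was left after the replicate effect had been removed, and 16 residual degrees of freedom, in place of the 14 with the block, make them somewhat too small.

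The 10 members and the 6 lists, written from general knowledge, were chosen with earlier results of these data known. All members are named at every time, of each list up to 6 genes with the smallest F-test p, and the 5 genes most correlated with Atf4 and with Ddit3. Further list genes are marked where they were named after their values had been seen. Older platform symbols were matched through RefSeq synonyms. Alternatives were a filter on low values, the mean of a gene's probe sets, median centring, quantile normalization, the replicate block, only the arrays compared, each array left out and, for the arrays that stood apart, both left out. The labels do not say what a replicate number shares across times. A check of whether same-numbered arrays deviate together is void here, since the removed effect fixes its mean outcome below 0, so the fit without the block was kept and the block tried beside it.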

Additional observations from a re-analysis of the deposited data

How the results depend on the processing

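No member's called difference turned its direction under any alternative. The counts of members called at 360, 480 and 600 min against 0 min held within 8 to 10 of 10 under each of them. Over all genes the calls, in either direction here and below, ran from 3026 to 4108, from 4033 to 5115 and from 4556 to 5682. At 120 min against 0 min 1 member was called, beside 94 genes in all. A filter on low values gave 3, beside 166 genes, and the 6 arrays of both times alone gave 0, beside 6 genes. At 240 min against 0 min 3 were called, beside 610 genes in all. Without replicate 3 of 120 and of 240 min (the pair) 7 were called, beside 1663 genes. With the replicate block and without the pair 7 were called too, beside 1314 genes. The 6 arrays alone gave 0, beside 32 genes. At 120 min against 60 min 4 were called, beside 82 genes in all. The block without the pair gave 2, beside 35 genes, and the 6 arrays alone 0, beside 5 genes. At 240 min against 120 min 0 members and 0 genes in all were called. Without the pair 2 members were called, beside 524 genes, or 287 with the block as well. At 360 min against 240 min 3 were called, beside 1207 genes in all. The 6 arrays alone gave 0, beside 177 genes. The filter gave 4, beside 1611 genes, and quantile normalization 4, beside 1299, with Ddit3 added in both. At 480 min against 360 min 0 were called, beside 122 genes in all. Atf5 (1 member) was called without the pair, beside 237 genes, and with the block and without the pair, beside 134. It was also called under the filter (123 genes), under median centring (120) and from the 6 arrays alone (84). With 1 array left out the counts ran from 0 to 3 at 120 min, 1 to 7 at 240 min, 9 to 9 at 360 min, 8 to 9 at 480 min and 8 to 10 at 600 min, all against 0 min, from 2 to 6 at 120 min against 60 min, from 2 to 3 at 360 min against 240 min, and from 9 to 10 by the F-test. Over all genes the calls in these fits ran from 13 to 234, 200 to 1298, 3026 to 3210, 4033 to 4314 and 4556 to 5153 from 120 to 600 min. They ran from 27 to 199 at 120 min against 60 min, from 280 to 1422 at 360 min against 240 min and from 5746 to 6217 by the F-test. Replicate 3 of 240 min (7 members without it, against 3, and 1298 genes, against 610) moved a member count furthest. With the replicate block, on 14 residual degrees of freedom, 1, 2, 9, 8 and 10 members were called from 120 to 600 min against 0 min. Over all genes the block gave 40, 356, 3267, 4344 and 4824 calls, against 94, 610, 3792, 4834 and 5370 without it. The block also gave 3 members at 120 min against 60 min, beside 37 genes, and 2 at 360 min against 240 min, beside 776 genes. Over all genes the pair's removal turned 610 calls at 240 min into 1663, and 0 at 240 min against 120 min into 524. The 6-array fits rest on fewer arrays, and the other causes were not tested. Taking the mean of a gene's probe sets leaves the members' values as they are, since each has 1. Without a detection call, a bound for the dim Atf3 could not be set.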
